A study of Mus musculus with 2 samples.

Results

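Paired IAPLTR1_Mm LTRs are couples of long terminal repeats (LTRs) of the intracisternal A particle (IAP) family that lie on one strand at the spacing of the ends of one provirus. They were found from position alone: after all loci were sorted along each chromosome, consecutive loci of the same subfamily and strand with 1000 to 8000 bp between them formed a pair, and each locus entered 1 pair at most. This gave 181 IAPLTR1_Mm pairs, or 362 of the 4799 loci measured and of the 912 loci that carry this subfamily name, and the other 550 IAPLTR1_Mm loci were unpaired. The upstream member by strand is called the 5′ LTR and the other the 3′ LTR, although the files hold no internal sequence that would show that both belong to one provirus.

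Methylation was measured by bisulfite sequencing of PCR-enriched IAP LTR junctions in 2 mouse cell lines: the embryonic stem (ES) line AB2.2, from strain 129, and the brain neuroblastoma line Neuro2A, from strain A albino. Each line gave 1 library. The lines therefore differ in strain, tissue and tumour origin together, which cannot be told apart here, and no agent, knockout or transgene is named for either. Whether each copy, which is placed on the mm9 assembly, is present in both strains was not checked.

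An IAP provirus is an endogenous retrovirus with an LTR at each end of its internal genes. The LTRs are copied from the same template at insertion, so they start out identical, and the 5′ LTR holds the promoter that drives the element's transcript, while the 3′ LTR supplies its end. IAP copies are known for dense CpG methylation in most mouse cells, and many have lost part of the internal sequence, so the distance between the LTRs of a copy varies.

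The members of a pair mostly shared their length, which took no part in the choice. LTR lengths were equal within 169 of the 181 pairs (93.4%). Among 62 consecutive same-strand IAPLTR1_Mm couples with more than 8000 bp and up to 1000000 bp between them, 5 (8.06%) had equal lengths. The median length was 368 bp at the 5′ end (range 337 to 480) and 367 bp at the 3′ end (range 213 to 480). No consecutive same-strand couple lay closer than 1000 bp. The nearest couple beyond the upper limit, on chr2 (5′ LTR 131756372 to 131756753, minus strand), had a gap of 12222 bp, LTRs of 382 bp each, 5′ levels of 88.7% in ES and 94.4% in Neuro2A cells, and 3′ levels of 93.1% and 84.5%.

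The 5′ LTRs varied widely in methylation in Neuro2A cells, and their 3′ partners did not. In Neuro2A cells the 5′ LTRs ran from 0.0% to 100%, with a median of 82.8% (quartiles 72.6 and 91.6%, SD over loci 21.9, n = 181 loci). The 3′ LTRs ran from 53.0% to 92.4%, with a median of 87.0% (quartiles 85.5 and 88.7%, SD over loci 4.72). Levels within 5 points of the median of their own end were found at 50 of the 5′ LTRs (27.6%) and at 152 of the 3′ LTRs (84.0%).

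The wider spread at the 5′ end reached upward as well as downward. In Neuro2A cells 25 of the 5′ LTRs lay under 60%, against 1 of the 3′ LTRs, and 7 lay under 20%, against 0. At the upper end, 56 of the 5′ LTRs (30.9%) stood at 90% or above, against 13 of the 3′ LTRs (7.18%), and 26 stood at 95% or above, against 0.

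ES cells had the same order of spread on a smaller scale. Their 5′ LTRs ran from 33.6% to 100%, with a median of 89.4% (quartiles 86.0 and 92.1%, SD over loci 8.83), and 7 lay under 70%. Their 3′ LTRs ran from 71.5% to 95.3%, with a median of 92.2% (quartiles 90.6 and 92.9%, SD over loci 3.75), and none of the 181 lay under 70%. The libraries have no replicate and the read depth is unknown, so these spreads hold differences between loci and measurement error together, and their parts were not tested.

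**Figure D1:**
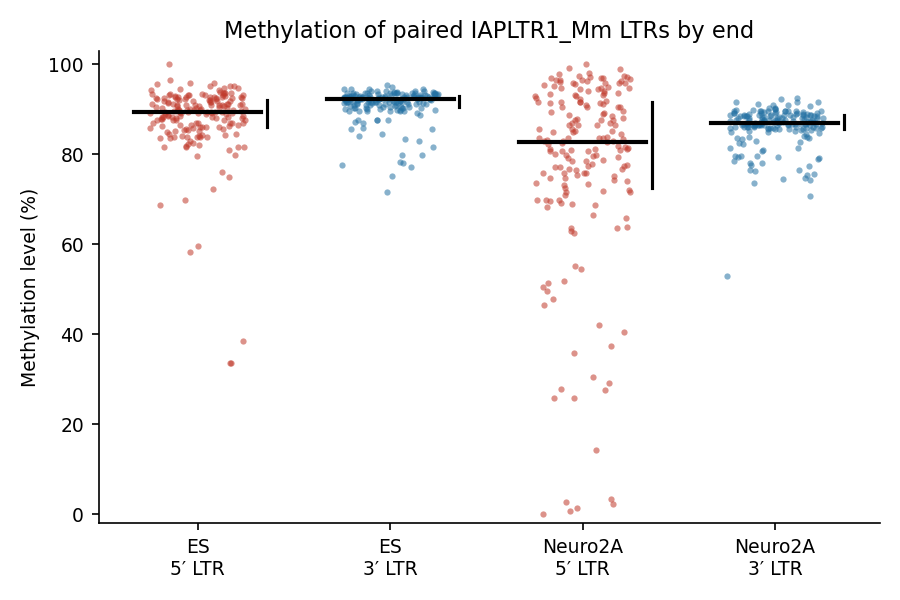
Methylation level (%) of each 5′ LTR (red) and 3′ LTR (blue) of the 181 IAPLTR1_Mm pairs in the ES and Neuro2A libraries; each point is a locus, the horizontal bar is the median and the vertical bar spans the quartiles. The Neuro2A 5′ LTRs fill the range from 0.0 to 100%, while the Neuro2A 3′ LTRs lie between 53.0 and 92.4%.

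The unpaired IAPLTR1_Mm loci resembled the 3′ LTRs in both level and spread. Their median was 91.9% in ES cells (SD over loci 4.04, n = 550) and 86.8% in Neuro2A cells (SD over loci 5.18). Of these, 87.1% lay within 5 points of their Neuro2A median. Their median length, 366 bp, was close to that of the paired LTRs. How reads that fit several copies were placed is not given in the sources used here, and its part in the narrow spread of the 3′ and unpaired loci was not tested.

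Within a pair, the 5′ LTR was more often the lower end. In ES cells it was lower in 122 of 181 pairs, higher in 54 and equal in 5, with a median 5′ minus 3′ level of -2.0 points (interval over pairs -2.9 to -1.0). In Neuro2A cells it was lower in 104, higher in 76 and equal in 1, with a median of -2.8 points (interval over pairs -6.7 to 0.0). These are 95% order-statistic intervals of the median that treat pairs as draws from 1 library and say nothing about a second culture. By differences of any size, the order of the ends was not always the same in both libraries. The 5′ LTR was the lower in both in 76 pairs and the higher in both in 30. In 45 pairs it was the lower in ES and the higher in Neuro2A cells, and in 24 the reverse. The ends lay within 5 points of each other in 114 pairs in ES and in 43 in Neuro2A cells. The part of measurement error in these changes of order was not tested.

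Large differences between the ends went nearly all one way, and the 100% ceiling left little room for the other way. At 80% or above lay 158 of the 181 3′ LTRs in Neuro2A cells and 173 in ES cells. The 5′ partner of such an LTR cannot be higher by more than 20 points. How far this sets the direction was not tested. In Neuro2A cells the 5′ LTR was lower than its partner by 20 points or more in 30 IAPLTR1_Mm pairs (16.6%, exact interval over pairs 11.5 to 22.8), against 14.5% of all 906 IAP pairs. The 3′ LTR was lower by that much in 2 pairs (1.1%), against 6.95% of all pairs. In ES cells the counts were 7 (3.87%) and 0 pairs, where all pairs gave 1.55% and 2.65%. The share with a low 5′ end was thus close to that of IAP pairs in general in Neuro2A cells and above it in ES cells, and the share with a low 3′ end was under it in both. All pairs include these 181, which gave 7 of the 14 such low 5′ ends in ES cells. They also include IAPLTR2_Mm, IAPLTR2a and IAPLTR2b pairs, whose Neuro2A 3′ medians of 70.7, 71.05 and 69.65% leave more room for a higher 5′ end. None of this was tested, since each line has 1 library.

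Levels of the ends hardly tracked each other across pairs. Between the 5′ and 3′ levels of a pair, Pearson's r was 0.042 and Spearman's rho 0.019 in ES cells; in Neuro2A cells they were 0.029 and 0.047 (n = 181 pairs, each within 1 library). Across the libraries, the 3′ levels had an r of 0.76 and a rho of 0.42, and the 5′ levels 0.18 and 0.22. In the 314 IAPLTR1a_Mm pairs, the 5′ and 3′ levels had an r of 0.231 and a rho of 0.205 in Neuro2A cells. The 3′ levels of IAPLTR1_Mm pairs had a narrow spread, and its part in the low coefficients between the ends was not tested. All these coefficients describe loci that share a library, and they carry no p-value.

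The 8 pairs whose 5′ end lay furthest below the 3′ end in Neuro2A cells show how far the ends can part. The widest difference was in a pair on chr11 whose 5′ LTR (51483384 to 51483720, minus strand) was at 2.3% in Neuro2A and 92.1% in ES cells, while its 3′ LTR (51478548 to 51478884) was at 90.9% and 92.2%. In a pair on chr1, the 5′ LTR (74706807 to 74707173, minus strand) was at 1.3% in Neuro2A and 82.9% in ES cells, and the 3′ LTR (74699995 to 74700361) at 88.9% and 93.4%. On chr7, the 5′ LTR at 25368799 to 25369149 (minus strand) was at 3.4% in Neuro2A and 89.3% in ES cells, with its 3′ LTR (25363185 to 25363535) at 87.7% and 91.4%. In each of these the ES library had both ends above 80%, and the Neuro2A library kept only the 3′ end there.

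A neighbouring couple of candidate proviruses on chr8 had both 5′ ends low in Neuro2A cells. The minus-strand pair had its 5′ LTR (13715388 to 13715757) at 0.8% in Neuro2A and 83.8% in ES cells, and its 3′ LTR (13710411 to 13710780) at 86.8% and 92.8%. The plus-strand pair had its 5′ LTR (13719305 to 13719641) at 2.7% in Neuro2A and 81.6% in ES cells, and its 3′ LTR (13724006 to 13724342) at 86.7% and 91.6%. The 5′ LTRs are the inner ends, 3547 bp apart and pointing away from each other by strand, and the 3′ LTRs are the outer ends. The low levels were thus at the inner LTRs and the high levels at the outer ones.

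In some of these pairs another level was low as well. In a second pair on chr7, the 5′ LTR (144606702 to 144607081, plus strand) was listed at 0.0% in Neuro2A cells and was at 96.4% in ES cells, and the 3′ LTR (144611585 to 144611964), at 73.5% and 77.5%, was among the 4 lowest 3′ LTRs of the Neuro2A library. A pair on chr10 (5′ LTR 121807695 to 121808048, minus strand) was low at the 5′ end in both lines, with 14.2% in Neuro2A and 38.4% in ES cells, against 86.6% and 89.7% at the 3′ end. The eighth in order, on chr8 (5′ LTR 112262955 to 112263336, plus strand), had 27.7% in Neuro2A and 93.9% in ES cells at the 5′ end and 89.6% and 93.2% at the 3′ end. Of these 8 pairs, 7 had Neuro2A 5′ levels under 20%, and they are all the 5′ LTRs under that level.

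Pairs with a 3′ end lower by 20 points or more in Neuro2A cells were few and less extreme. By any amount, the 3′ end was the lower in 76 of 181 pairs. The 5′ LTR of a pair on chr5 (43740381 to 43740736, minus strand) was at 98.9% in Neuro2A and 83.8% in ES cells, and its 3′ LTR (43736213 to 43736568) at 74.8% and 93.0%. On chr17, the 3′ LTR at 38409197 to 38409549 (plus strand) had the lowest level of any 3′ LTR in each library, 53.0% in Neuro2A and 71.5% in ES cells, with 73.4% and 79.8% at the 5′ end. These were the 2 pairs with a 3′ end lower by 20 points in Neuro2A cells, and in the chr17 pair the 3′ end was the lower in ES cells too. The next in order were pairs on chr15 (5′ LTR 4808822 to 4809217), at 91.6% and 75.7% for the 5′ and 3′ ends, and chr3 (5′ LTR 51420105 to 51420520), at 96.0% and 81.0%.

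The rest of the 4 lowest 3′ LTRs of Neuro2A cells were under 80% in ES cells as well. This did not hold for every low 3′ LTR: that of the chr5 pair above, at 74.8% in Neuro2A cells, was at 93.0% in ES cells. The 3′ LTR on chrX (122757007 to 122757374, plus strand) was at 70.8% in Neuro2A and 79.8% in ES cells, under 5′ levels of 85.7% and 94.2%. The 3′ LTR on chr9 (30456169 to 30456535, plus strand) was at 74.3% and 75.2%, with 5′ levels of 77.8% and 86.1%.

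A low 5′ end was rarer in ES cells, and 1 of the 4 pairs with the widest ES difference was among the 8 pairs above. The widest ES difference was on chr14, where the 5′ LTR (104988587 to 104988938, minus strand) was at 33.6% in ES and 77.1% in Neuro2A cells, and the 3′ LTR at 93.7% and 86.1%. That pair, on chr10, came second. On chr9, the 5′ LTR (3466120 to 3466472, minus strand) was at 33.7% in ES and 93.7% in Neuro2A cells, and the 3′ LTR (3461294 to 3461646) at 84.0% and 79.6%. On chr2, the 5′ LTR (105398064 to 105398418, plus strand) was at 58.3% in ES and 40.5% in Neuro2A cells, and the 3′ LTR at 92.0% and 89.9%. Of these 4 copies, 2 had a higher 5′ level in Neuro2A than in ES cells.

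Set against ES cells and before any centring, Neuro2A cells had lower median levels at both ends, with a narrow range of differences at the 3′ end and a wide one at the 5′ end. At the 3′ LTRs the ES level was the higher in 175 of 181 loci, by a median of 4.8 points (quartiles 3.7 and 6.5, SD over loci 3.07), but all loci together shifted by 6.1 points, and with the libraries centred on their medians the value was -1.3 points. At the 5′ LTRs the ES level was the higher in 124 loci and the Neuro2A level in 56, with a median difference of 6.6 points (quartiles -1.4 and 16.4, SD over loci 22.1) and 0.5 points after centring. The ES minus Neuro2A difference was larger at the 5′ end in 93 pairs and at the 3′ end in 88.

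An excess of 20 points or more in ES cells was found at 36 of the 5′ LTRs (19.9%, exact interval over loci 14.3 to 26.5) and at 0 of the 3′ LTRs, where 14.9% of all 4799 loci passed this limit. After centring, 25 of the 5′ LTRs passed it, and the share of all loci was not computed in that setting. Without centring, 25.5% of 5′ LTRs and 7.17% of 3′ LTRs passed it over all IAP pairs. The reverse, a Neuro2A level higher by 20 points, was found at 3 of the 5′ LTRs (1.66%) and at 0 of the 3′ LTRs, against 1.58% of all loci. Among the unpaired IAPLTR1_Mm loci the counts were 3 and 1 of 550.

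The 36 pairs whose 5′ LTR was lower in Neuro2A cells did not stand apart at the 3′ end. Their 5′ median was 89.5% in ES cells, against 89.4% in the other 145 pairs, and 34 of the 36 were at 80% or above there. Their Neuro2A 5′ levels ran from 0.0% to 72.1%, with a median of 48.6%, against 86.5% in the others. That contrast follows from the choice of the 36 by this same level. Their 3′ LTRs had medians of 92.2% in ES and 86.8% in Neuro2A cells, against 92.2% and 87.0%. Just inside the limit, at 20.1 points and all with gaps of over 6000 bp, lay pairs on chr10 (5′ LTRs 30808375 to 30808771 and 56857508 to 56857860) and chrX (5′ LTR 19238814 to 19239166), and just outside, at 19.6 points, a pair on chr9 (5′ LTR 90758933 to 90759302).

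**Figure D2:**
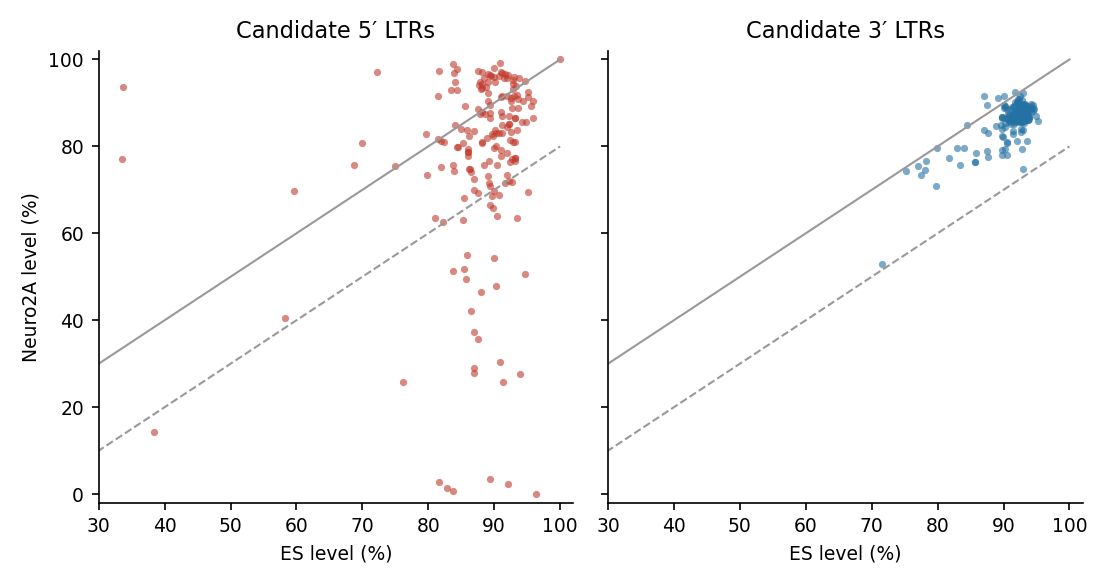
Neuro2A level against ES level (both %) for the 5′ LTRs (left) and the 3′ LTRs (right) of the 181 pairs; the solid line marks equal levels and the dashed line an ES level 20 points higher. Below the dashed line are 36 of the 5′ LTRs and 0 of the 3′ LTRs.

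The gap between the LTRs fell into 2 main sizes. Of the 181 pairs, 95 had a gap of 6300 to under 6600 bp and 41 a gap of 4400 to under 4700 bp, and the shortest and longest gaps were 1537 and 7637 bp. A gap shorter than the most frequent size was taken as a sign of lost internal sequence, which the files do not show directly. The classes used were 1000 to under 3000 bp (3 pairs), 3000 to under 5500 bp (78 pairs) and 5500 to 8000 bp (100 pairs). LTR lengths were equal in 93.6% of the middle and 94.0% of the long class.

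In these libraries, low 5′ ends in Neuro2A cells made up a larger share of the middle class than of the long class. In the middle class the Neuro2A 5′ LTRs ran from 0.0% to 98.9%, with a median of 79.7% (quartiles 68.8 and 91.2%, SD over loci 26.2). In the long class they ran from 1.3% to 100%, with a median of 83.7% (quartiles 75.1 and 91.8%, SD over loci 17.6). The classes overlapped over nearly the whole range, and their upper quartiles were alike.

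The 3′ LTRs and the ES library did not part by gap in this way. The Neuro2A 3′ median was 87.0% in both the middle and the long class. The ES 5′ medians were 89.3% and 89.5%, and the ES 3′ medians 92.0% and 92.2%. The spread of the ES 5′ LTRs was somewhat wider in the middle class, with SDs over loci of 10.1 and 7.82.

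The 5′ LTR was lower than the 3′ LTR by 20 points or more in Neuro2A cells in 20 of 78 middle pairs (25.6%, exact interval over pairs 16.4 to 36.8) and in 10 of 100 long pairs (10%, interval 4.9 to 17.6), against 14.5% of all IAP pairs, and the intervals overlapped slightly. Within the sizes that hold most pairs, it was so in 12 of 41 with a gap of 4400 to under 4700 bp (29.3%) and in 9 of 95 with a gap of 6300 to under 6600 bp (9.47%). Of the 7 pairs with a Neuro2A 5′ level under 20%, 6 were in the middle class. The Neuro2A 5′ minus 3′ level had a median of -7.45 points in the middle and -2.35 points in the long class, with intervals over pairs that overlapped (-10.7 to 0.6 and -5.7 to 1.3). With the pairs cut by gap into 3 groups of near equal size, the medians were -6.6, -2.9 and -2.65 points from the shortest to the longest gaps, so the upper groups hardly differed.

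Set against the ES library, 20 of 78 middle pairs (25.6%) and 16 of 100 long pairs (16.0%, interval 9.43 to 24.7) had a 5′ LTR lower by 20 points, and these intervals overlapped as well. Over the 5′ LTRs of all 906 IAP pairs the share was 25.5%, so the middle class was close to it and the long class under it. A difference of 40 points was found in 12 of 78 middle and 6 of 100 long pairs. At any gap, it was found in 14 of 314 IAPLTR1a_Mm, 22 of 215 IAPLTR2_Mm, 12 of 120 IAPLTR2a and 3 of 76 IAPLTR2b pairs. In the 3 groups of near equal size, the shares were 23.3, 16.9 and 19.4% from the shortest to the longest, so the order of the upper groups was turned. Across pairs, gap and the Neuro2A 5′ level had an r of 0.11 and a rho of 0.071.

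**Figure D3:**
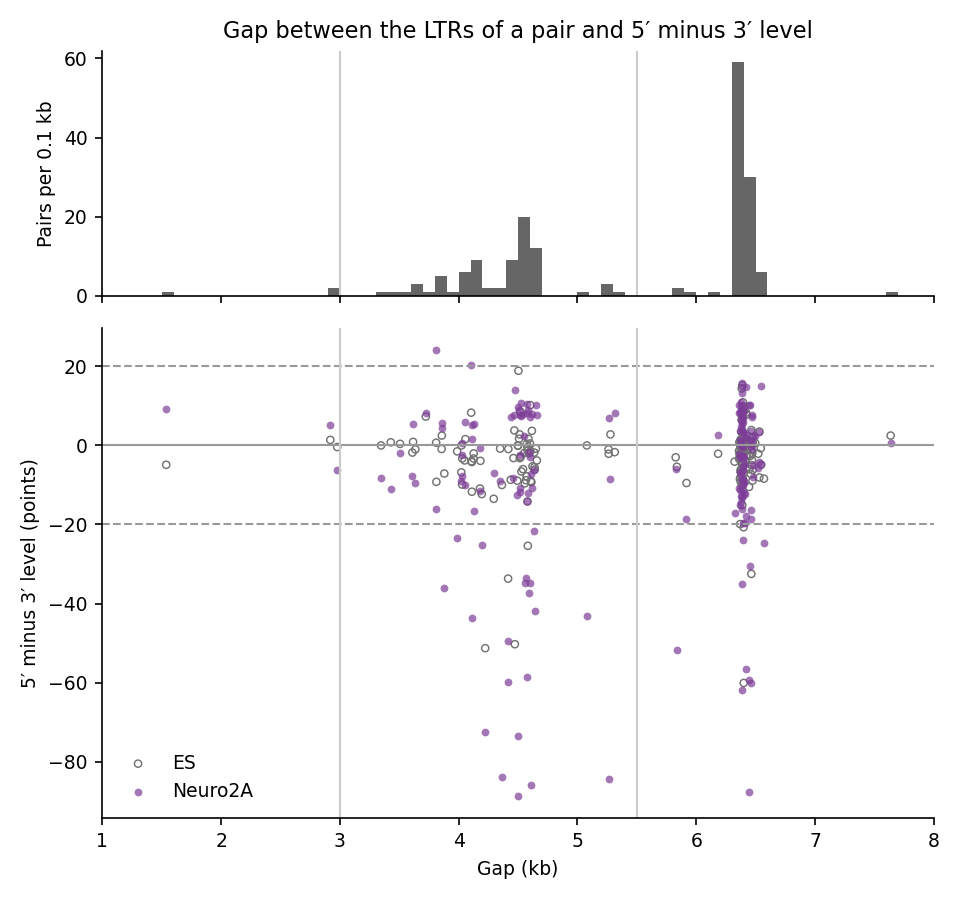
Upper panel, number of IAPLTR1_Mm pairs per 0.1 kb of gap between the LTRs; lower panel, 5′ minus 3′ level in percentage points against the gap in kb, with open circles for ES and filled circles for Neuro2A, dashed lines at 20 points either way and vertical lines at the class limits. Of the points at or under -20 in Neuro2A cells, 20 belong to the 78 middle pairs and 10 to the 100 long pairs.

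The shortest gaps belonged to pairs on chr3 (1537 bp, 5′ LTR 66831865 to 66832215), chr8 (2919 bp, 80326041 to 80326409) and chr13 (2977 bp, 4068804 to 4069155), whose Neuro2A levels at the 5′ and 3′ ends were 97.1% and 88.0%, 91.0% and 85.9%, and 81.4% and 87.7%. With 3 pairs, this class supports no comparison. The longest gap, 7637 bp on chr1 (5′ LTR 151361410 to 151361779), went with LTRs of 370 and 351 bp and Neuro2A levels of 83.7% and 83.0%. The next longest were pairs on chr10 (6570 bp, 5′ LTR 128832807 to 128833171), at 63.0% and 87.6% and so past the 20-point limit between the ends, and on chr7 (6546 bp, 4151485 to 4151838), at 81.9% and 86.7%.

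The closely related IAPLTR1a_Mm subfamily, measured in the same libraries, showed the same order by gap. Of its 314 pairs, 145 were in the middle and 162 in the long class, and 5′ LTRs lower in Neuro2A cells by 20 points made up 35 (24.1%, interval 17.4 to 31.9) and 14 (8.64%, interval 4.81 to 14.1) of them. Over the 5′ LTRs of all 906 IAP pairs this share was 25.5%. A 5′ LTR lower than its 3′ partner by 20 points in Neuro2A cells was found in 17.9% of its middle and 7.41% of its long pairs, against 14.5% of all IAP pairs. The median gap was 3824 bp in its middle class, against 4496 bp for IAPLTR1_Mm, so the classes do not hold the same sizes of copy. The order was turned in IAPLTR2b pairs, where 6 of 26 middle pairs (23.1%) and 4 of 16 long pairs (25%) had a 5′ LTR lower in Neuro2A than in ES cells by 20 points. IAPLTR2_Mm and IAPLTR2a had 2 and 0 pairs in the long class.

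IAPLTR1_Mm pairs had the larger SD over 5′ loci of the 2 subfamilies in both libraries, but their Neuro2A 5′ quartiles were close. These were 72.6 and 91.6%, against 74.7 and 92.0% for IAPLTR1a_Mm. In ES cells 3 of the 181 IAPLTR1_Mm 5′ LTRs lay under 40% and 5 under 60%, while the lowest IAPLTR1a_Mm 5′ LTR was at 72.5%. For IAPLTR1_Mm the SD over 5′ loci was 21.9 in Neuro2A and 8.83 in ES cells, against 17.2 and 4.11 for IAPLTR1a_Mm, while at the 3′ end it was 4.72 and 3.75 against 5.29 and 3.24. Pairs of the IAPLTR2 group differed in the sign of the median end contrast but not always in the direction of large differences. In Neuro2A cells the 5′ minus 3′ level had a median above 0 in each of these subfamilies, at 2.9 points in IAPLTR2_Mm and IAPLTR2a pairs and at 6.3 points in IAPLTR2b pairs. The 5′ end was lower by 20 points or more in 41 IAPLTR2_Mm pairs (19.1%) and higher in 29, whereas the counts were 17 and 18 for IAPLTR2a and 5 and 10 for IAPLTR2b. Equal LTR lengths were found in 36.7% of the IAPLTR2_Mm, 55% of the IAPLTR2a and 47.4% of the IAPLTR2b pairs. These differences between subfamilies were not tested, since each line has 1 library.

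**Figure D4:**
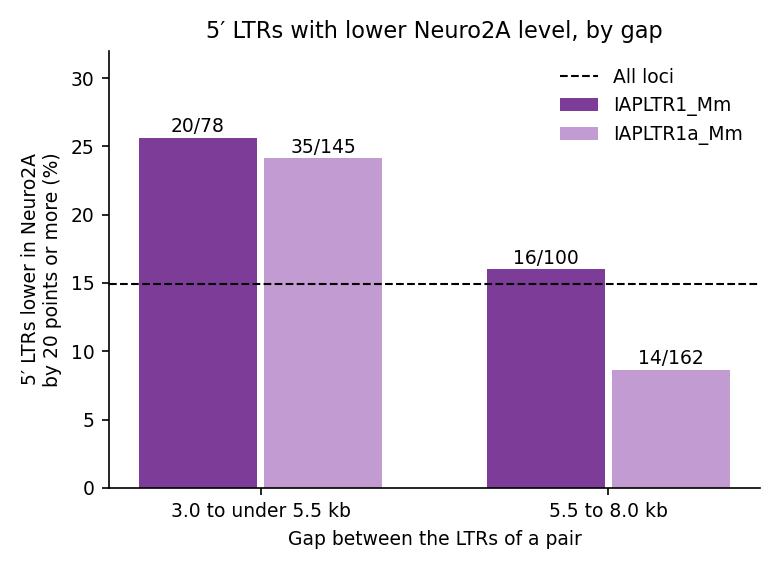
Share of 5′ LTRs (%) whose Neuro2A level was lower than the ES level by 20 points or more, by gap class, for IAPLTR1_Mm and IAPLTR1a_Mm pairs; the counts stand above the bars and the dashed line marks the 14.9% of all loci. In both subfamilies the share was higher for gaps of 3000 to under 5500 bp than for longer gaps. The line includes 3′ and unpaired LTRs, and over the 5′ LTRs of all 906 IAP pairs the share, not drawn, was 25.5%.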

How the data were processed

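Genomic DNA libraries of the AB2.2 ES line and the Neuro2A line, 1 each, were analysed. Per the file headers, the deposited score of each LTR is the authors' methylation level as a fraction multiplied by 1000, on build mm9; it was divided by 10 to give percent. The submitters' processing notes list Bowtie2, with no role or version; the caller, the read filters and the coverage were not given in the sources used here, so depth and precision per locus are unknown.

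Loci were matched by name and placed by the coordinates in the name, with starts raised by 1 because they equal the BED start column, which counts from 0 (if the names count from 1, printed starts are 1 too high); at 1 entry of the ES file the position columns went against the name. Pairing, medians and counts used Python 3.11.15, pandas 2.3.3 and scipy 1.17.1, and were tested on simulated pairs. With 1 library per line no p-value was computed; exact (Clopper-Pearson) and order-statistic 95% intervals run over loci. The members, classes and lists were chosen with earlier results of these data known. Named pairs are the 8 lowest and 4 highest by 5′ minus 3′ Neuro2A level, the 4 widest in ES cells, the 4 lowest 3′ LTRs in Neuro2A cells, and the 3 shortest and 3 longest gaps; pairs beside the 20-point limit were added. The ranges of 4400 to under 4700 and 6300 to under 6600 bp were set after the gaps were seen. No mm9 sequence or annotation was used, so genes and sequences of the copies are not given.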

Additional observations from a re-analysis of the deposited data

How the results depend on the processing

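No paired analysis was possible because the study holds a single library of each line. Alternatives were other gap windows, 1 pair per 100 kb, leaving out ambiguous pairs, autosomes, means, centring, other limits and other gap classes; pairs of equal LTR length, pairs without a level of exactly 0 or 100%, and leaving out chromosome 8 or 10 were added after the data were seen. A window of 500 to 10000 bp and the rule on ambiguous pairs left the same number of pairs, 181. In 116 comparisons the direction was kept and the value lay inside its interval or, for counts, within 1.5 times, while 11 moved and 3 reversed. Those 116 include every comparison under that window and that rule, which could not differ, and counts of 0 that stayed at 0. They also include the short-class share of 5′ LTRs lower in Neuro2A cells. It went from 0% to 18.75 and 23.33% under other gap classes, inside a 3-pair interval of 0 to 70.76%. Taking means gave -8.93 points for 5′ minus 3′ in Neuro2A cells, -3.42 in ES cells and 10.65 for ES minus Neuro2A at 5′ LTRs. Centring on the medians of all loci gave 0.5 points at 5′ LTRs and -1.3 at 3′ LTRs. The latter reversed because the 3′ median difference of 4.8 points was smaller than the 6.1 points of all loci. With a limit of 10 points, the 5′ end was lower in 59 pairs and the 3′ end in 17, and ES cells were higher at 66 of the 5′ and 10 of the 3′ LTRs. With 40 points these were 18, 0, 18 and 0. The short class, 5.1 points over 3 pairs, became -4.15 points with limits of 4000 and 6000 bp (16 pairs) and -6.6 points for the shortest of 3 equal groups (60 pairs), both reversed and made up mostly of other pairs. The long class moved from -2.35 to -0.9 points with those limits and to -0.7 on autosomes, and the middle class from -7.45 to -2.9 points with 3 equal groups, which hold other pairs. Centring left 25 of the 36 5′ LTRs with an ES excess of 20 points. Of the named pairs, it took the 5′ LTRs on chr10 at 121807695 and 128832807 under 20 points (18.1 and 16.1) and that on chr5 at 43740381 past it (-21.2).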

Other observations

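The 5′ LTRs with an ES excess of at least 20 points, 36 of 181 (19.9%), were spread over 14 of the 20 chromosomes that hold pairs. They made up 6 of 12 pairs on chromosome 8, 7 of 19 on chromosome 10, 4 of 10 on chromosome 11 and 4 of 13 on chromosome 7, against 1 of 14 on chromosome 6, 1 of 13 on the X and 0 of 7 on chromosome 12. The median Neuro2A 5′ level was 62.65% on chromosome 8 and 91.45% on chromosome 6, while the 3′ medians were 86.55% and 86.95%. Without chromosome 8, 30 such 5′ LTRs were left, and without chromosome 10, 29. These chromosomes were picked after their values were seen, and the share of all IAP loci on each was not computed.

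On the plus strand lay 23 of the 36, as did 96 of all 181 pairs. By LTR length, 18 of 99 pairs with a 5′ LTR of at most 368 bp and 18 of 82 with a longer one were lower by that much, and length and the Neuro2A 5′ level had a rho of 0.006 across pairs. On the X, the median Neuro2A 5′ level was 79.6% over 13 pairs, against 83.0% over 168 autosomal pairs, and the 3′ medians were 87.3% and 86.85%. A pair on chr6 (5′ LTR 73162705 to 73163057) was listed at 100% at the 5′ end in both libraries, with 91.3% in ES and 86.7% in Neuro2A cells at the 3′ end.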
